A study of Mus musculus with 9 samples.

Results

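The CCAAT/enhancer-binding proteins (C/EBPs) are transcription factors, and the genes Cebpa, Cebpb, Cebpd, Cebpg and Cebpz were followed in mouse mast cells at rest, after antigen, and after antigen with the compound taxinine. The members were chosen by gene symbol in the deposited tables of counts and log2 values. All 5 had a row, among 15109 genes in all. Cebpe, which encodes C/EBP epsilon, had no row and was not analysed here.

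C/EBPs bind DNA as dimers through a basic region and a leucine zipper, and each can pair with the others or with zipper proteins of the ATF family. C/EBP alpha drives the granulocyte and monocyte lineages of the bone marrow and is known to hold back the mast cell fate, while C/EBP beta and C/EBP delta are induced by inflammatory signals and act on cytokine and acute phase genes. C/EBP gamma lacks a strong activation domain and works mainly as a partner for other zipper proteins, among them ATF4. Cebpz carries the family name, but its protein has no leucine zipper, binds CCAAT boxes by another route and is related to factors of ribosome assembly.

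Messenger RNA came from cultures of bone marrow-derived mast cells of wild-type C57BL/6 mice, grown for weeks in medium conditioned by WEHI-3 cells, a source of interleukin 3. Mast cells carry the high-affinity IgE receptor, whose crosslinking by antigen releases mediators and starts transcription of cytokine genes. The 3 Control libraries were from untreated cells. The 3 BSA libraries were from cells sensitised with anti-DNP-IgE and stimulated with DNP-BSA, the antigen that crosslinks this antibody. The 3 Taxinine libraries were from cells given the same antibody and antigen, with taxinine, a diterpenoid of yew, for 1 h before the antigen. The sources used here do not give the dose of taxinine, the time with antigen, a vehicle or the age of the mice, and BSA against Control includes both sensitisation and antigen.

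The design calls the 3 libraries of each group biological replicates without saying whether they were separate animals or cultures, so the p-values rest only on how these samples spread, a spread that may be technical. Total counts ran from 8975371 in Taxinine replicate 1 to 14116976 in Control replicate 2, and 3 counts in a library correspond to 0.192 to 0.347 CPM (counts relative to the total of their library). Levels are CPM with totals adjusted by TMM (trimmed mean of M values, which balances libraries on their typical gene), as mean ± SD over 3 libraries. Mast cell markers were present in full (11 of 11, summing to 46995 to 52474 CPM per library). Of 9 neutrophil markers 2 had a row, with summed levels of 1.62 to 4.37 CPM, and of 6 T and B cell markers 1 had a row, at 0 to 0.761 CPM. Basophil markers (4 of 4) summed to 1200 to 1341 CPM, and monocyte or macrophage markers (8 of 9) to 80.9 to 99.5 CPM. Dendritic cell markers (3 of 6) summed to 40.95 to 49.96 CPM. Erythroid or megakaryocyte markers (2 of 5) summed to 1598.2 to 1766.5 CPM, nearly all of it from Itga2b. In these bulk samples fewer cells of a type and less RNA per cell cannot be told apart.

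Coordinates are of GRCm38 from the GENCODE M21 annotation. Cebpa lies at chr7:35119293-35121928, Cebpb at chr2:167688915-167690418 and Cebpd at chr16:15887286-15891031, all on the plus strand and each without an intron in the union of its annotated exons. Cebpg lies at chr7:35046422-35056573, near Cebpa but on the minus strand, with 3 separate exonic blocks, and Cebpz at chr17:78919006-78937066 on the minus strand, with 16. Exons of genes on the opposite strand overlap 312 exonic bases of Cebpb (Tmem189), 562 of Cebpd (Spidr), 171 of Cebpz (Cebpzos), 51 of Cebpa (Gm45091) and 4 of Cebpg (Gm45095), and 73 bases of Cebpg are shared with Gm44836 on the same strand. The libraries were made with a stranded kit, but the sources used here do not give the strand setting of the counting, so reads in those bases cannot be assigned with certainty. Tmem189, the neighbour of Cebpb, had 48.9 CPM in Control and 49.1 in BSA (log2 fold change 0.01, edgeR adjusted p = 0.948). Group means of Spidr were 27.6 to 32 CPM, highest in Taxinine, and those of Cebpzos 1.33 to 1.83 CPM.

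The 250 bases upstream of the annotated start are shown for the 3 members with an entry in the RefSeq promoter table (GRCm38.p6). Cebpd and Cebpz had no entry. Capitals mark TGACG, the core of the cyclic AMP response element bound by CREB and ATF proteins, TATAAA, the TATA box, and CCAAT, each searched on both strands, so CGTCA and ATTGG are the same motifs read on the minus strand. Sequences are written 5′ to 3′ in the direction of the gene, which for Cebpg is the minus strand.
Cebpa, chr7:35119043-35119292, plus strand: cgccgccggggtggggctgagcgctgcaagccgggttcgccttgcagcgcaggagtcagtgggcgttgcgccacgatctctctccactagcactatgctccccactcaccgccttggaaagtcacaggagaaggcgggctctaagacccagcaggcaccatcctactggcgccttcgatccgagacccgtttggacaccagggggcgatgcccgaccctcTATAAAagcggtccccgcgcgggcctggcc
Cebpb, chr2:167688665-167688914, plus strand: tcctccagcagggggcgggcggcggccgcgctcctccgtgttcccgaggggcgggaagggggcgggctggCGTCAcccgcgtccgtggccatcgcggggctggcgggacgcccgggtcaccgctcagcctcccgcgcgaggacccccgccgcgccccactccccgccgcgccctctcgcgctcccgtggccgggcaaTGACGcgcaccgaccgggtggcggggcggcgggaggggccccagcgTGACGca
Cebpg, chr7:35056567-35056816, minus strand: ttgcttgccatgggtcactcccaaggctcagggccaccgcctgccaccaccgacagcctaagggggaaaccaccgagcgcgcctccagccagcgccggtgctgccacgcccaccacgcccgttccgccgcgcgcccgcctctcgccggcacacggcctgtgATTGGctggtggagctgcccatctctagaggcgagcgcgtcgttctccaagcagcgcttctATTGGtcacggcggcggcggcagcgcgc

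The Cebpb window held TGACG 3 times, beginning 180 bases upstream on the minus strand and 53 and 7 bases upstream on the plus strand, and the windows of Cebpa and Cebpg held none. Of 32851 promoters of this length, 17.8% held TGACG at least 1 time and 0.688% at least 3 times. GC content was 81.6% for Cebpb, 66.4% for Cebpa and 70.8% for Cebpg, against a median of 52.4%. The shares of promoters given here were not matched for GC content. Cebpa had TATAAA 30 bases upstream (12.4% of promoters held it), and Cebpg had CCAAT at 89 and 28 bases upstream (33.8%). Neither TTNNGNAA, a loose form of the C/EBP site (36.8% of promoters), nor TGANTCA, the AP-1 site (6.75%), was in any of the 3 windows. These matches describe letters in a window and were not tested as binding sites.

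In the comparison of antigen-stimulated with untreated cells, Cebpb rose 2.77-fold, and no other member passed the test. The count was 1 of 5 members, where 34% of all genes were called at an edgeR adjusted p under 0.05 (16.2% higher, 17.8% lower). Groups did not overlap for 2 members, Cebpa and Cebpb, where 42.9% of all genes had groups that did not overlap. With plain totals (below, totals not scaled by TMM), 4 of the 5 members were called, Cebpb higher and Cebpa, Cebpg and Cebpz lower. That scaling lowers the median log2 fold change of all genes to -0.23, from -0.0041 with TMM. It also raises the number of all genes called, and most of those calls are lower, with the counts given at the end.

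Cebpb encodes C/EBP beta, also known as NF-IL6, the C/EBP that binds the promoter of the interleukin 6 gene. The Control libraries had 179, 157 and 162 counts of it, the BSA libraries 420, 404 and 286, and the Taxinine libraries 227, 292 and 330 (replicates 1 to 3, here and below). As TMM-scaled CPM Control had 11.8, 10.05 and 10.6, BSA had 31.9, 31.8 and 26.0, and Taxinine had 26.3, 27.8 and 24.9. All 6 antigen-stimulated libraries lay above all 3 Control libraries with a wide gap, while BSA and Taxinine overlapped. Means were 10.8 ± 0.915 CPM in Control, 29.9 ± 3.38 in BSA and 26.3 ± 1.41 in Taxinine. Cebpb was higher in BSA than in Control by 1.47 ± 0.09 (log2 ± SE, edgeR adjusted p = 2.10e-17, from 1.86e-36 to 5.02e-12 over the 17 alternatives). Its log2 fold change lay at the 97th percentile of all genes, and its p ranked 321 of 15109. Taxinine against Control gave 1.28 ± 0.10 (2.43-fold, edgeR adjusted p = 9.48e-15).

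**Figure D1:**
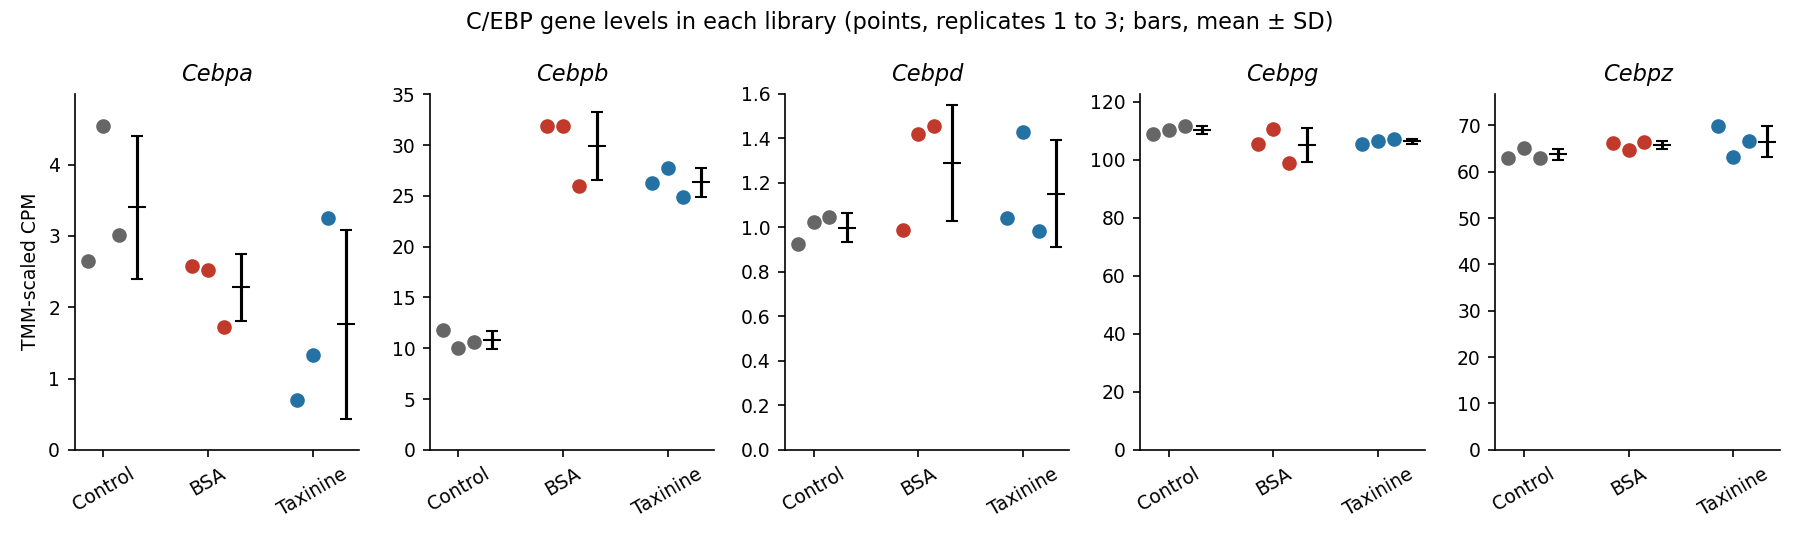
Levels of the 5 genes in each library (points, TMM-scaled CPM, linear axis from 0, a separate scale for each gene) with the group mean and SD as bars, in Control, BSA and Taxinine (n = 3 each). The 6 antigen-stimulated libraries of Cebpb sit at 24.9 to 31.9 CPM, above the Control libraries at 10.05 to 11.8, and the Cebpa libraries of Taxinine spread from 0.694 to 3.25.

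Cebpg, the partner without a strong activation domain, did not pass the test in any comparison with TMM scaling. Control libraries had 108.87, 110.3 and 111.7 TMM-scaled CPM, BSA libraries 105.6, 110.6 and 99.04, and Taxinine libraries 105.5, 106.6 and 107.2. BSA overlapped both other groups, and the 3 Taxinine libraries lay just below the 3 Control libraries. The difference of BSA from Control was -0.07 ± 0.05 on the log2 scale (95% interval -0.16 to 0.03, edgeR adjusted p = 0.311), and it was -0.30 with totals not scaled by TMM. The interval, a normal approximation from the SE, lay far from the change of Cebpb.

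Cebpz, the member related to ribosome assembly factors, did not pass in any comparison with that scaling either. Control libraries had 63.1, 65.1 and 63.0 TMM-scaled CPM, BSA libraries 66.2, 64.8 and 66.5, and Taxinine libraries 69.9, 63.1 and 66.6. All 3 groups overlapped. The log2 difference of BSA from Control was 0.05 ± 0.05 (95% interval -0.06 to 0.15, edgeR adjusted p = 0.574), and its sign turned with scaling (-0.18 with totals not scaled by TMM, -0.0043 with quantile normalisation).

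Cebpa, the granulocyte and monocyte factor, had few counts and spread widely within groups. The Control libraries had 40, 71 and 46 counts, the BSA libraries 34, 32 and 19, and the Taxinine libraries 6, 14 and 43. As TMM-scaled CPM Control had 2.64, 4.54 and 3.01, BSA had 2.58, 2.52 and 1.73, and Taxinine had 0.694, 1.33 and 3.25. Every BSA library lay below every Control library, whereas Taxinine replicate 3 lay among the Control libraries and the other Taxinine libraries lay below all others. The exact 95% counting intervals of the Taxinine replicates 1 and 3 (2.20 to 13.1 and 31.1 to 57.9 counts, counting error only) were far apart. In BSA against Control the log2 difference was -0.56 ± 0.27, which did not pass the test (edgeR adjusted p = 0.1008). It passed without Control replicate 1 (-0.71, edgeR adjusted p = 0.0343) and with totals not scaled by TMM (-0.79, edgeR adjusted p = 0.0116).

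Cebpa fell in Taxinine against Control by 0.82 ± 0.29 on the log2 scale (edgeR adjusted p = 0.0222, from 0.000148 to 0.195 over the alternatives), although the groups overlapped. With Cebpb this made 2 of 5 members called in that comparison, where 33.1% of all genes were called (15.9% higher, 17.2% lower), and for 2 members (Cebpb and Cebpg) groups did not overlap, as for 43.7% of all genes. Totals not scaled by TMM gave 4 of 5 members called, Cebpb higher and Cebpa, Cebpg and Cebpz lower. Most calls among all genes were lower there too. Quantile normalisation gave 3 of 5, 1 higher and 2 lower. The Cebpa call was lost without Control replicate 2 (-0.56, edgeR adjusted p = 0.168), Taxinine replicate 1 (-0.51, 0.185) or Taxinine replicate 2 (-0.63, 0.156), and with DESeq2 (-0.91, DESeq2 adjusted p = 0.195). Without Taxinine replicate 3 the difference was -1.70 (edgeR adjusted p = 0.000148). The neutrophil markers in the table, Ly6g and Mmp8, summed to 2.45 to 3.27 CPM in Control, 3.31 to 4.37 in BSA and 1.62 to 3.61 in Taxinine, and in none of the 9 libraries was that sum 0. Ly6g was at 0.231, 0.380 and 0.907 CPM in Taxinine replicates 1, 2 and 3, with 18 counts in all, and Mmp8 was at 1.39, 3.23 and 2.34 CPM. Taxinine replicate 1 also had the fewest total counts. The part of such cells or of depth in the Cebpa values was not tested.

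Cebpd, an acute phase member in other cells, had only 9 to 18 counts per library. Control libraries had 0.925, 1.02 and 1.05 TMM-scaled CPM, BSA libraries 0.987, 1.42 and 1.46, and Taxinine libraries 1.04, 1.43 and 0.982. The 3 groups overlapped. The log2 difference of BSA from Control was 0.35 ± 0.33 (95% interval -0.29 to 0.99, edgeR adjusted p = 0.454), and the 1.47 of Cebpb lay outside that interval.

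**Figure D2:**
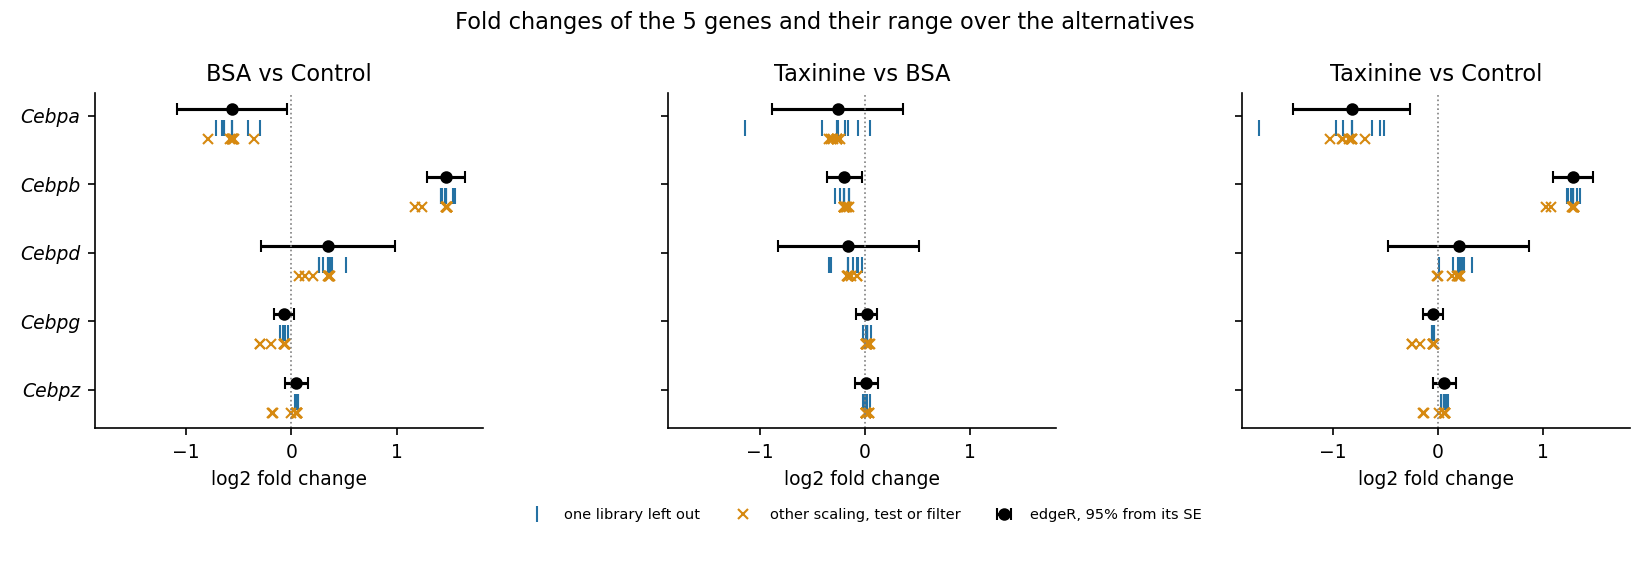
Log2 fold changes of the 5 genes in the 3 comparisons, with edgeR's estimate and a 95% interval from its SE in a normal approximation (black), the values with 1 library left out (blue ticks) and with another scaling, test or filter (orange crosses). Cebpb stands at 1.47 and 1.28 against Control in every setting above 1, and Cebpa in Taxinine against Control ranges from -1.70 to -0.51.

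The comparison of Taxinine with BSA asks what pretreatment changed in stimulated cells, and it called 0 of 5 members with edgeR, where 6.98% of all genes were called (2.86% higher, 4.12% lower). An unadjusted p under 0.05 was reached by 1 member, Cebpb, and DESeq2 and limma called 0 as well, with no adjusted p from DESeq2 for Cebpa and Cebpd. Groups overlapped for all 5 members in CPM, where 23.9% of all genes had groups that did not overlap. The log2 difference of Cebpb was -0.19 ± 0.09 (95% interval -0.36 to -0.03, edgeR adjusted p = 0.185, from 0.0529 to 0.467 over the alternatives). Those of Cebpg and Cebpz were 0.02 ± 0.05 and 0.01 ± 0.06 (edgeR adjusted p = 0.898 and 0.940), and those of Cebpa and Cebpd were -0.26 ± 0.32 and -0.16 ± 0.34 (edgeR adjusted p = 0.727 and 0.859). Both comparisons with Control share the Control libraries, and both with BSA share the BSA libraries.

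Levels of different genes were compared per kilobase of annotated exon. In Control the order was Cebpg at 19.6 ± 0.249 CPM per kilobase, Cebpz at 13.7 ± 0.261, Cebpb at 7.20 ± 0.608, Cebpa at 1.29 ± 0.382 and Cebpd at 0.267 ± 0.0172, with no overlap between neighbours. In BSA Cebpb at 19.9 ± 2.25 and Cebpg at 18.7 ± 1.03 had overlapping libraries, so their order was not resolved, and Cebpz followed at 14.1 ± 0.196, Cebpa at 0.864 ± 0.181 and Cebpd at 0.344 ± 0.0695. In Taxinine Cebpg at 18.9 ± 0.150 lay above Cebpb at 17.5 ± 0.941 in every library, then came Cebpz at 14.3 ± 0.727, and Cebpa at 0.667 ± 0.504 overlapped Cebpd at 0.307 ± 0.0643. Cebpb lay below Cebpz in Control and above it in both stimulated groups, and its percentile among all genes was 64.5 in Control, 84 in BSA and 82.3 in Taxinine. The union of exons is long for Cebpg; with the length of its longest coding transcript Cebpg was at 22.3 CPM per kilobase in BSA, above the mean of Cebpb.

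**Figure D3:**
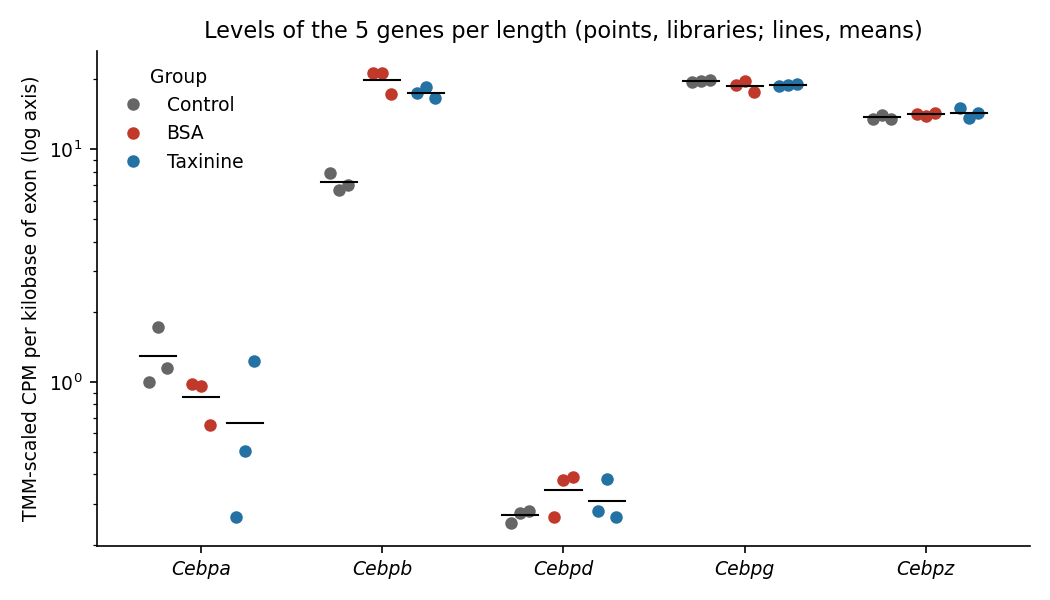
CPM per kilobase of annotated exon for the 5 genes in each library (points, log axis) with group means, in Control, BSA and Taxinine (n = 3 each). Cebpb rises from 7.20 to 19.9, next to Cebpg, while Cebpa and Cebpd stay at the bottom, below 2.

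As a share of the 5 genes' summed CPM per kilobase, Cebpb made up 17.1 ± 1.48% in Control, 36.8 ± 2.07% in BSA and 33.9 ± 1.69% in Taxinine. Cebpg made up 46.7%, 34.7% and 36.6%, although its own level did not pass a test with TMM scaling. These shares do not depend on how libraries are scaled, but they do depend on the gene length used. By the longest coding transcript Cebpb made up 33.31% and Cebpg 37.45% in BSA, the reverse order. In BSA replicate 3 Cebpg (35.08%) also exceeded Cebpb (34.43%) by the union of exons.

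Ratios of 2 members within a library also do not depend on scaling, and they were compared in 30 exact 2-sided permutation tests, in which 3 libraries against 3 cannot go below p = 0.1 and the smallest adjusted p was 0.25. The Control libraries held 0.109, 0.0911 and 0.0949 Cebpb counts per Cebpg count, the BSA libraries 0.302, 0.288 and 0.263, and the Taxinine libraries 0.249, 0.260 and 0.233. The 3 groups did not overlap, with Control lowest by far and BSA highest, although the lowest BSA and the highest Taxinine library nearly met. The log2 ratio differed by 1.53 between BSA and Control (exact p = 0.1) and by -0.20 between Taxinine and BSA (exact p = 0.1). Against Cebpz the Taxinine and BSA ratios of Cebpb overlapped (-0.19, exact p = 0.2), so the separation depended on the partner chosen. The Control libraries held 0.223, 0.452 and 0.284 Cebpa counts per Cebpb count, the BSA libraries 0.0810, 0.0792 and 0.0664, and the Taxinine libraries 0.0264, 0.0479 and 0.130. Both stimulated groups lay below Control, and Taxinine spread to both sides of BSA. The log2 difference was -2.02 in BSA and -2.48 in Taxinine against Control (exact p = 0.1 for each).

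**Figure D4:**
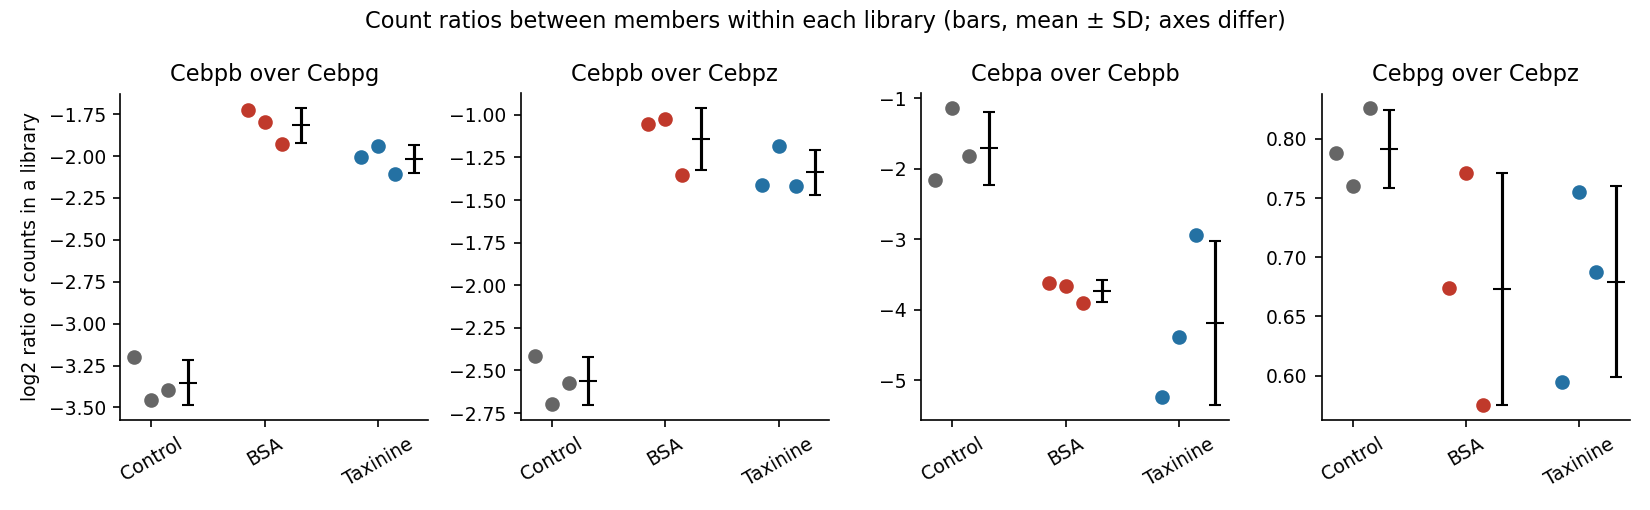
Log2 ratios of counts within each library (points) with the group mean ± SD as bars, for 4 pairs of members in Control, BSA and Taxinine (n = 3 each, a separate axis for each pair). Cebpb over Cebpg averages -3.35 in Control, -1.82 in BSA and -2.02 in Taxinine, and Cebpa over Cebpb averages -1.71, -3.73 and -4.19.

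The genes around the family were taken from 6 lists written from general knowledge, with earlier results of these data known. Their counts beside all genes are therefore descriptions and not independent comparisons. Among 24 measured partners and regulators of C/EBPs, 12 rose and 4 fell in BSA against Control, where 16.2% of all genes rose and 17.8% fell (median log2 fold change 0.13, against -0.0041 for all genes). The split became 9 and 11 with totals not scaled by TMM, where most calls among all genes were lower. It was 12 and 4 with RLE scaling, and 11 and 8 with quantile normalisation. Atf3, a zipper repressor of inflammatory genes, rose by 4.63 ± 0.06 on the log2 scale, from 15.4 to 381 CPM. Nfil3, a zipper factor with a related binding site, rose by 3.01 ± 0.07, and Crem, of the CREB family, by 1.66 ± 0.06. Trib1, the adaptor that directs C/EBP alpha protein to degradation, rose by 6.02 ± 0.17, from 0.499 ± 0.0967 CPM in Control to 33.2 ± 4.21 in BSA. Eif4e, the cap-binding factor, rose by 0.66 ± 0.05.

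In Taxinine against BSA 1 of these 24 rose and 4 fell, where 2.86% of all genes rose and 4.12% fell (2 and 2 with totals not scaled by TMM). Atf3 fell by 0.49 ± 0.05 (edgeR adjusted p = 1.25e-10), to 270 CPM. Nfil3 fell by 0.25 ± 0.06 (edgeR adjusted p = 0.00292), a call lost without BSA replicate 1 (edgeR adjusted p = 0.0678). Eif4e fell by 0.16 ± 0.05 (edgeR adjusted p = 0.0321), a call lost with totals not scaled by TMM (0.0790) and without BSA replicate 1 or any 1 Taxinine replicate (0.0533 to 0.183). Trib1 had 28.7 CPM and did not pass (-0.21 ± 0.08, edgeR adjusted p = 0.131). Ddit3, encoding CHOP, a C/EBP relative that forms dimers with other members, was the gene that rose, by 0.24 ± 0.05 (edgeR adjusted p = 0.00287), after a rise of 0.42 ± 0.05 in BSA against Control. Its group means were 115, 154 and 181 CPM, and the call against BSA was lost without BSA replicate 1 (edgeR adjusted p = 0.0584) or Taxinine replicate 3 (0.0556). The calls numbered 1 without BSA replicate 1, 3 without Taxinine replicate 1 and 2 without Taxinine replicate 3.

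Of 23 measured inflammatory and acute phase genes known as C/EBP targets, 15 rose and 0 fell in BSA against Control, with a median of 1.08, beside the 16.2% and 17.8% of all genes given above. These genes answer to other factors as well, NF-kappaB among them. The chemokine genes Ccl4 and Ccl3 rose by 5.68 ± 0.07 and 3.90 ± 0.06, Ptgs2, encoding cyclooxygenase 2, by 4.65 ± 0.08, and Nfkbiz, encoding a nuclear co-activator of cytokine genes, by 2.71 ± 0.05. The cytokine genes Tnf, Il6 and Il1b rose by 3.84 ± 0.07, 2.30 ± 0.05 and 1.31 ± 0.05. In Taxinine against BSA 11 fell and 0 rose (median -0.42, against 4.12% and 2.86% of all genes), and Il1b fell most of the genes named, by 0.85 ± 0.05 (207 to 115 CPM, edgeR adjusted p = 9.89e-16), then Tnf by 0.66 ± 0.06 and Il6 by 0.54 ± 0.05. Il6 means were 192 CPM in Control, 942 in BSA and 650 in Taxinine.

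Of the myeloid targets of C/EBP alpha and C/EBP epsilon, 10 of 20 had a row. In BSA against Control 2 rose and 1 fell, a share close to the 34% of all genes called. Gfi1, a repressor needed by granulocytes, fell by 1.77 ± 0.24, from 4.27 ± 0.841 CPM to 1.24 ± 0.165, with 1.11 ± 0.186 in Taxinine. Lyz2, the lysozyme gene of macrophages and granulocytes, rose by 0.57 ± 0.09 and then fell by 0.52 ± 0.10 in Taxinine against BSA. It was the only call among the 10 there, beside 6.98% of all genes called. Lyz2 is itself among the summed monocyte and macrophage markers, so their sum is not independent of it. The sum was at 82.0 to 82.6 CPM in Control, 89.7 to 99.5 in BSA and 80.9 to 86.4 in Taxinine. Lyz2 means were 14.64 CPM in Control, 21.78 in BSA and 14.95 in Taxinine. Of the other summed markers, Adgre1 (44.2 CPM in Control, 49.8 in BSA) and Cd68 (14.7 and 17.1) had higher means in BSA. The call of Adgre1 was lost with DESeq2 (DESeq2 adjusted p = 0.0540) and with totals not scaled by TMM (edgeR adjusted p = 0.453). Means of Csf1r (0.758 and 0.869), Ly6c2 (0.542 and 0.554) and C1qb (0.0867 and 0.192) were also higher in BSA, but few reads bear on them. Their counts were 35 and 32, 25 and 21, and 4 and 7. Means of Cd163 (6.39 and 4.16) and Fcgr1 (1.15 and 0.538) were lower. C1qb was at 0 in Control replicate 3 and BSA replicate 1. The part of monocytes or macrophages in the Lyz2 values was not tested. Il6ra, the interleukin 6 receptor, was the other gene called higher, with group means under 0.5 CPM, near the limit of 3 counts. Its call was lost without Control replicate 3, BSA replicate 2 or BSA replicate 3 (edgeR adjusted p = 0.0694, 0.0671 and 0.0506). The protease gene Mmp8 did not pass in BSA against Control (0.52 ± 0.24, edgeR adjusted p = 0.0910). In Taxinine against BSA the protease gene Ctsg (-0.34 ± 0.14), the receptor gene Csf2ra (-0.23 ± 0.11) and Ly6g (-0.61 ± 0.47) did not pass either.

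The mast cell and basophil lineage list, with 26 of 26 measured, had 9 genes higher and 5 lower in BSA against Control (3 and 19 with totals not scaled by TMM, and 5 and 4 without Control replicate 1). RLE scaling gave 10 and 5, and quantile normalisation 5 and 14. Hdc, the histamine-forming enzyme, rose by 2.63 ± 0.04 and the tryptase gene Tpsab1 by 1.66 ± 0.06, while Lyl1, a factor of blood stem cells and precursors, fell by 0.99 ± 0.06. Runx1, a regulator of blood cell fate, rose by 0.60 ± 0.04. The counts with TMM stand beside 16.2% of all genes higher and 17.8% lower. With totals not scaled by TMM most calls among all genes were lower as well. In Taxinine against BSA 10 of the 26 fell and 0 rose, where 4.12% of all genes fell and 2.86% rose. The summed basophil markers, all 4 of which are on this list, were at 1317 to 1341 CPM in Control, 1289 to 1337 in BSA and 1200 to 1216 in Taxinine, and their part in these counts was not tested. Of the genes on the lineage list, Zfpm1, the GATA cofactor, fell by 0.44 ± 0.08 and Lyl1 by 0.37 ± 0.08. Mcpt8, a basophil protease, fell by 0.35 ± 0.06, Runx1 by 0.26 ± 0.04 and Ikzf1, encoding Ikaros, by 0.24 ± 0.04.

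The ATF4 list holds genes of the amino acid response, in which ATF4 and C/EBPs share composite sites. Of its 28 genes, 17 rose and 0 fell in BSA against Control, beside 16.2% and 17.8% of all genes. With totals not scaled by TMM 9 rose and 7 fell, where most calls among all genes were lower. RLE scaling gave 18 and 0, and quantile normalisation 8 and 3. Ppp1r15a, which restores translation after stress, rose by 1.77 ± 0.05, Chac1, which breaks down glutathione, by 1.29 ± 0.07, the stress gene Ddit4 by 0.99 ± 0.05 and the amino acid transporter gene Slc7a5 by 0.82 ± 0.04. In Taxinine against BSA 3 rose and 2 fell, beside 2.86% and 4.12% of all genes. The counts were 4 and 1 with totals not scaled by TMM, 1 and 2 with RLE scaling, and 1 and 1 with DESeq2. Ppp1r15a fell by 0.29 ± 0.05 and Eif4ebp1, a translation inhibitor, by 0.20 ± 0.06, whereas Ddit3 and Ddit4 rose, the latter by 0.17 ± 0.05. The calls of Eif4ebp1 and Ddit4 held in 5 and 4 of the 9 fits with 1 library left out (edgeR adjusted p up to 0.248 and 0.269). The calls numbered 1 without BSA replicate 1 and 2 without Taxinine replicate 2 or 3, and 3 without BSA replicate 3 or Taxinine replicate 1.

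Ribosome assembly factors are the functional kin of Cebpz. With TMM scaling 13 of 32 were higher and 0 lower in BSA against Control, beside 16.2% and 17.8% of all genes. Plain totals, not scaled by TMM, gave 5 higher and 14 lower, and most calls among all genes were lower too. RLE scaling gave 14 and 0, DESeq2 12 and 0, and quantile normalisation 10 and 2. Rrp12 rose by 0.92 ± 0.06, Nop58 by 0.54 ± 0.05, Gtpbp4 by 0.49 ± 0.05, and Ddx21 and Fbl by 0.36 each. Cebpz itself, at 0.05 ± 0.05, did not pass. In Taxinine against BSA 1 of the 32 rose and 2 fell, beside 2.86% and 4.12% of all genes. Nop56 rose by 0.21 ± 0.05 and Fbl and Gtpbp4 fell by 0.26 ± 0.05 and 0.18 ± 0.05. Rpf2 did not pass (-0.31 ± 0.11, edgeR adjusted p = 0.0783). The call of Nop56 was lost without Taxinine replicate 3 (edgeR adjusted p = 0.0654), and that of Gtpbp4 without BSA replicate 1 (0.0747) or Taxinine replicate 2 (0.129).

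**Figure D5:**
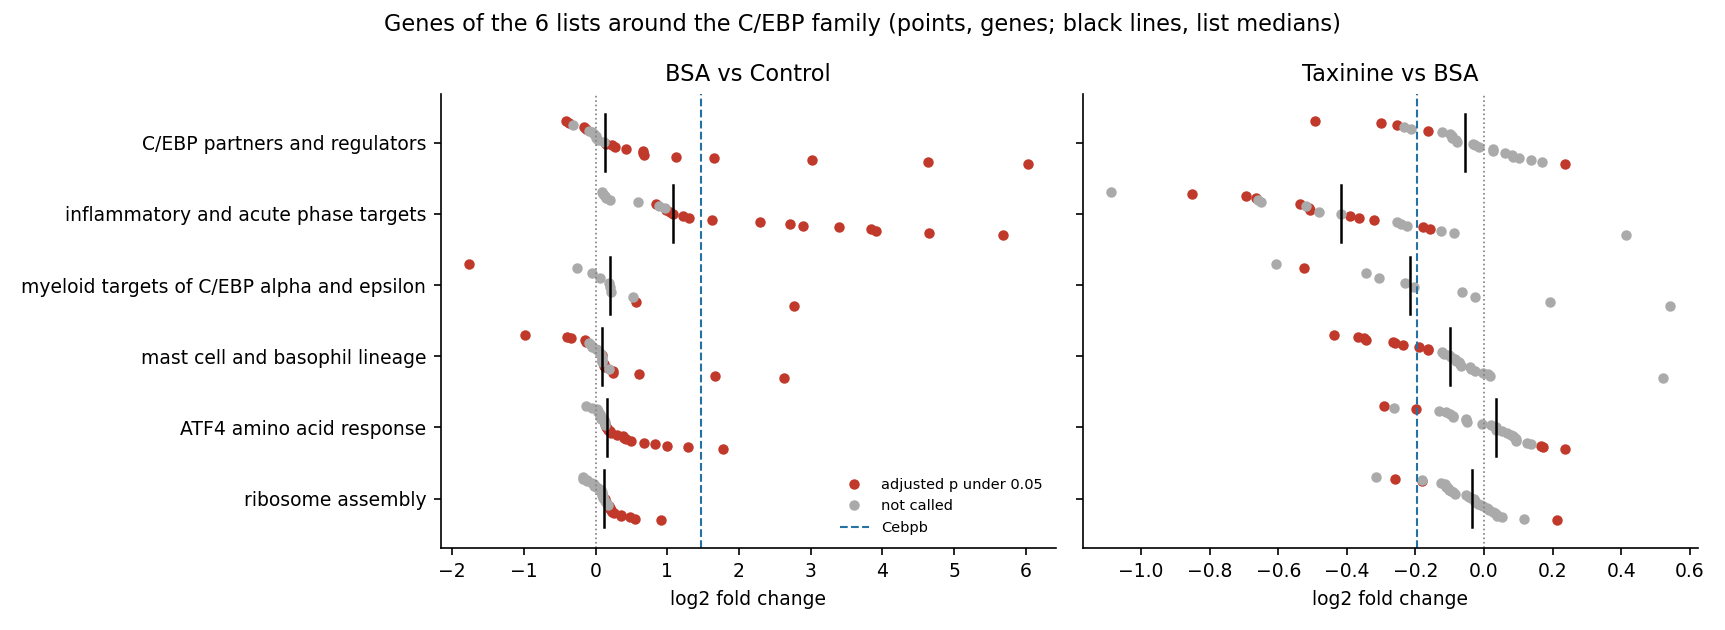
Log2 fold change of each measured gene (points, red where the edgeR adjusted p was under 0.05, grey where not) in the 6 lists, for BSA against Control (left) and Taxinine against BSA (right, a narrower axis), with list medians as black lines, 0 as a dotted line and Cebpb as a dashed line at 1.47 and -0.19. The median of the inflammatory list lies at 1.08 on the left and -0.42 on the right.

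Genes whose pattern over the 9 libraries was most like that of a member were ranked by the root mean square difference of centred log2(CPM + 1) values, among 10713 genes. For Cebpb these were Btg1, an antiproliferative gene, Wee1, a kinase that holds back mitosis, and Ero1l, an oxidase of the endoplasmic reticulum, at 0.0944, 0.0972 and 0.0992, where Cebpb itself varied with an SD of 0.66. Btg1 means were 666 CPM in Control, 1820.5 in BSA and 1574 in Taxinine, and Wee1 means were 39.2, 103 and 83.7 CPM. Ero1l was at 1633, 4357 and 4248 CPM. Btg1 fell by 0.21 ± 0.04 and Wee1 by 0.31 ± 0.06 in Taxinine against BSA (edgeR adjusted p = 0.000148 and 0.000275), while Ero1l differed by -0.04 ± 0.04 (edgeR adjusted p = 0.692). With a pseudocount of 0.25 in place of 1 Osgin2 replaced Wee1, and the nearest genes of Cebpg and Cebpz stayed as given next. For Cebpg the nearest genes were Irak1, Lman1 and Golga7 (0.0316 to 0.0336), and for Cebpz Nde1, Rtn3 and Sytl2 (0.0255 to 0.0289). Cebpg and Cebpz themselves varied with SDs of only 0.0517 and 0.0482, so these are matches between nearly flat genes. Relative to the member's own SD they were less close than the matches of Cebpb. For Cebpa the nearest genes were Plekhg5, Dmac1 and Slc8b1, at 0.224 to 0.274, where Cebpa itself had an SD of 0.508. Of these Dmac1 and Slc8b1 were replaced by Ndnf and Grcc10 with the other pseudocount.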

How the data were processed

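Reads of stranded messenger RNA libraries were aligned with STAR 2.7.0f, with mm10 and GRCm38 as the builds named, and limma 3.11 was used, per the submitters' processing notes. The sources used here do not give the counting program, its strand setting or the annotation. The deposited table holds whole-number counts for 15109 genes. Its name speaks of TMM-normalised counts, but its column totals differ between libraries and the deposited log2 values follow from it with plain totals, so the values were taken as unscaled; no source used here states this, and all tests rest on it. The deposited log2 values equal log2(CPM + 1) with plain library totals, to within 5e-05.

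Counts were tested with edgeR 4.0.16 (R 4.3.3), with TMM factors, 1 quasi-likelihood fit over 9 libraries and Benjamini-Hochberg adjustment over all genes at 0.05, after tests on simulated data. The biological coefficient of variation was 3.90%. Alternatives were total count and RLE scaling, DESeq2 1.42.0, limma 3.58.1 on the deposited and on quantile-normalised log2 values, a filter of 1 CPM in 3 libraries, only the groups compared, a replicate block, and each library left out. Exon lengths came from GENCODE M21, which holds 15106 of the identifiers. The length of the longest coding transcript and the list counts under alternatives were added after seeing the data.

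The 5 members and the gene lists were chosen with earlier results of these data known. Genes named are the members, up to 4 of each list with the smallest p in BSA against Control and in Taxinine against BSA, and the 3 genes nearest in pattern to each member; Tmem189, Spidr and Cebpzos were added because they overlap members. The genes nearest in pattern to Cebpd are not reported here.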

Additional observations from a re-analysis of the deposited data

How the results depend on the processing

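Cebpb kept its direction and its call against Control under all 17 alternatives, from 1.17 to 1.56 in BSA and from 1.02 to 1.35 in Taxinine, and was not called in Taxinine against BSA under any of them. With limma on the deposited log2 values and with total count scaling, genes called in BSA against Control numbered 7852 and 7977 in place of 5144, of which 13.6% were higher in each, against 47.6%; total counts moved that share from 48.1% to 15% in Taxinine against Control and from 40.9% to 57.6% in Taxinine against BSA. Under the same pair of settings the log2 differences of BSA from Control were -0.58 and -0.79 for Cebpa (adjusted p = 0.0268 by limma and 0.0116 by edgeR), -0.30 and -0.30 for Cebpg, and -0.18 and -0.18 for Cebpz, and those of Taxinine from Control were -0.25 and -0.25 for Cebpg, -0.14 and -0.14 for Cebpz, and -0.0039 and -0.0066 for Cebpd. Under both of these settings Cebpa, Cebpg and Cebpz were called lower in BSA and in Taxinine against Control. Quantile normalisation gave -0.19 and -0.17 for Cebpg in BSA and Taxinine against Control and -0.0043 for Cebpz in BSA against Control. DESeq2 gave -0.91 for Cebpa in Taxinine against Control (adjusted p = 0.195). Beyond the change of scaling the cause was not tested.

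With 1 library left out, genes called in Taxinine against BSA numbered 616 to 1281, against 1055. Cebpa ranged from -0.71 to -0.30 in BSA against Control, from -1.70 to -0.51 in Taxinine against Control and from -1.14 to 0.0502 in Taxinine against BSA, where Cebpg ranged from -0.0213 to 0.0560 and Cebpz from -0.0185 to 0.0486. DESeq2 gave no adjusted p for Cebpa and Cebpd in Taxinine against BSA, so these have no value there. No shared effect of the replicate number was visible, which does not show that the samples were unmatched. Deviations from group means of same-numbered libraries correlated at -0.141 to 0.106 over 9 pairs. Of 9 libraries, 0 correlated best with their own number in both other groups. With the replicate number as a block, calls numbered 5078, 1093 and 4972 for BSA against Control, Taxinine against BSA and Taxinine against Control, and no member's call changed. Depth limits Cebpa and Cebpd, at 6 to 71 and 9 to 18 counts per library.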
